A study of Homo sapiens with 6 samples.

Results

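The 10 genes described here are subunits of NF-kB (NFKB1, NFKB2, RELA, RELB), its inhibitors NFKBIA and NFKBIE, and the NF-kB-induced genes TNFAIP3, TNFAIP2, BIRC3 and TRAF1. They were chosen by name, with earlier results of these data known, from the 60483 Ensembl gene ids of the count tables. All 10 matched an id, and all 10 were among the 14732 genes that passed the filter on low counts. They were measured in T98G, an established human glioblastoma cell line, by poly(A) RNA-seq of 6 libraries. The oeSRPK1 group (2 libraries) was transfected with full-length SRPK1, a kinase of splicing factors, cloned from T98G cDNA into pcDNA3.1. The shSRPK1 group (2 libraries) was transfected with a hairpin against SRPK1 in pLKO.1, and the NT group (2 libraries) was left untreated. Transfection was transient with Lipofectamine 2000, per the labels' protocols, which name no NF-kB stimulus. Both transfected groups are set against cells that received neither reagent nor plasmid, so SRPK1 and the transfection itself cannot be told apart in a comparison with NT. The 2 libraries per group are described as biological replicates with no word on separate cultures, so a p-value measures no more than the spread of these samples, part of which may be technical.

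NF-kB factors are dimers that are held in the cytoplasm by inhibitor proteins. Signals from TNF, interleukin and Toll-like receptors lead to the destruction of the inhibitor, and the freed dimer enters the nucleus and activates its targets. Several targets encode parts of the system itself, among them inhibitors and ubiquitin-editing enzymes that end the response, so their transcripts are often read beside those of the subunits. In glioblastoma the pathway is known for its link to the mesenchymal expression state.

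Promoter sequences from RefSeq (GRCh38.p14), which run from 250 bases before to 50 bases after a start, were at hand for 8 of the 10 genes, with 14 entries because some genes have several starts. They were searched on both strands for the 10-base kappa-B consensus, the degenerate motif bound by NF-kB dimers. It was present in 6 of the 14 entries and in 5 of the 8 genes (NFKB1, NFKB2, NFKBIA, TNFAIP3 and BIRC3), against 3956 of all 35116 promoters of the same length (11.3%). A position that matched on both strands was counted once, and a pair of positions in one NFKB2 promoter overlapped. The 4 promoters below are those of the genes with the 3 largest fold changes in oeSRPK1 against NT and of 1 inhibitor that was not called there, with matches in capitals. The BIRC3 matches begin 199 and 135 bases before the start, those of TNFAIP3 67 and 55 bases before it, and that of NFKBIA 81 bases before it. None of the 3 TRAF1 entries held the motif, and the one shown belongs to the start farthest upstream. A match describes these letters and does not show binding.
TRAF1 (chr9:120929122-120929421, minus strand): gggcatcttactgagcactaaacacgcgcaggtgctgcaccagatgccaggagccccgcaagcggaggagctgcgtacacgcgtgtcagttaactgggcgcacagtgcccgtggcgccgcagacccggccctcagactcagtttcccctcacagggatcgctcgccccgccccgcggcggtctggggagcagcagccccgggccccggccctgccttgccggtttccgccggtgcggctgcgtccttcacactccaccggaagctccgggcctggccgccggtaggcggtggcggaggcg
BIRC3 (chr11:102317234-102317533, plus strand): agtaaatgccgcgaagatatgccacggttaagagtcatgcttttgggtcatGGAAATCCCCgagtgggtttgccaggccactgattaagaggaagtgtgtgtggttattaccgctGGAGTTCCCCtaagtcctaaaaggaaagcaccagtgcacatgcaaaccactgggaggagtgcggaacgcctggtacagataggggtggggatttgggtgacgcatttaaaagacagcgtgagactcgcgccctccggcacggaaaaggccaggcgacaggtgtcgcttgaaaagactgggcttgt
TNFAIP3 (chr6:137867009-137867308, plus strand): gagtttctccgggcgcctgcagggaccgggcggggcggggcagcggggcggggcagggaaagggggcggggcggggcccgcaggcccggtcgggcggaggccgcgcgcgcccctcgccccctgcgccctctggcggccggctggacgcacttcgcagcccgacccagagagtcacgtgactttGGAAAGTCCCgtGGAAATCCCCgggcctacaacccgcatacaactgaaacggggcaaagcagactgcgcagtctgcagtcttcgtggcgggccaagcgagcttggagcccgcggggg
NFKBIA (chr14:35404700-35404999, minus strand): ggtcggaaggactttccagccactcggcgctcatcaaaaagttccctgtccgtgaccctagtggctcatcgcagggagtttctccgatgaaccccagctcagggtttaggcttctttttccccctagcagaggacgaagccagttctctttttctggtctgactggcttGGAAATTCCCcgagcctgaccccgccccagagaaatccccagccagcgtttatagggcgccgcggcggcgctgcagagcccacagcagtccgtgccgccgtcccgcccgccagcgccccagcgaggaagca

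The libraries held 3891549 (oeSRPK1 2) to 22691215 (oeSRPK1 1) reads in genes. SRPK1, the targeted gene, had 190.3 and 168 normalised CPM (reads per unit of library size after TMM scaling) in oeSRPK1, 113 and 140.1 in shSRPK1, and 152.5 and 140.4 in NT. It was not called in oeSRPK1 against NT (log2 fold change 0.29 ± 0.14 SE, edgeR adjusted p = 0.175) or in shSRPK1 against NT (-0.21 ± 0.14, edgeR adjusted p = 0.360), although the difference passed in oeSRPK1 when only those 2 groups were fitted (0.27, adjusted p = 0.0232) or without either shSRPK1 library (0.0267 and 0.0319), and in shSRPK1 without shSRPK1 2 (-0.37, adjusted p = 0.0208). The difference between oeSRPK1 and shSRPK1 was called (0.50 ± 0.14 higher in oeSRPK1, edgeR adjusted p = 0.0377), but the call was lost without either NT or either oeSRPK1 library (adjusted p 0.0939 to 0.308), with a replicate block (0.0609), in a fit of only these groups (0.0920) and after thinning to the shallowest library (0.0629). Of 12 glioblastoma and glial markers, VIM, CD44 and FN1 lay between 1130 and 3340 CPM in all libraries, while SOX2, S100B and AQP4 had 0 reads and GFAP 1 read in all. NES, OLIG2 and NCAM1 lay between 0 and 3.28 CPM. CHI3L1 had 2.61 and 2.33 CPM in oeSRPK1, 8.99 and 9.47 in shSRPK1, and 10.2 and 15.2 in NT. SOX9 went the other way, with 265 and 244 CPM in oeSRPK1, 131 and 147 in shSRPK1, and 86.8 and 91.7 in NT. Leukocyte transcripts were rare, with PTPRC and TYROBP at 0 in all 6 libraries and 12 lymphocyte markers summing to 0.315 to 0.776 CPM. Of the 12 macrophage and microglia markers, which summed to 7.33 and 8.79 CPM in oeSRPK1, 2.79 and 4.78 in shSRPK1 and 3.40 and 3.60 in NT, ITGAM made up 6.25 and 8.01 CPM in oeSRPK1, 1.13 and 3.54 in shSRPK1, and 2.82 and 2.90 in NT. Skeletal muscle transcripts (14 of 15 matched) summed to 355 and 3070 CPM in oeSRPK1, 75.5 and 79.9 in shSRPK1, and 68.6 and 71.0 in NT. Most of the sum in shSRPK1 and NT was TNNT1 (65.7 to 73.9 CPM), which had 108 and 120.0 CPM in oeSRPK1. The myosin MYH7 had 108 and 1270 CPM in oeSRPK1, 0 and 5.83 in shSRPK1 and 0 in both NT libraries, and the actin ACTA1 had 74.1 and 897 in oeSRPK1, 0.0755 and 3.54 in shSRPK1, and 0.0971 and 0.141 in NT. The part of the muscle transcripts in the results below was not tested.

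In oeSRPK1 against NT, 8 of the 10 genes rose and 0 fell. TRAF1 (10.7-fold) and BIRC3 (6.48-fold) rose most, and TNFAIP3, NFKB2, NFKBIE, RELB, NFKB1 and TNFAIP2 rose by smaller amounts. RELA and NFKBIA did not pass the threshold of a Benjamini-Hochberg adjusted p under 0.05 in edgeR's quasi-likelihood test. Among all tested genes, 11.2% were called higher and 9.45% lower. The median log2 fold change of the 10 was 0.99, against -0.0007 for all tested genes. All 10 had both oeSRPK1 libraries above both NT libraries, an arrangement that 35.9% of all tested genes shared. The number called depended on single libraries, and so did the number called over all tested genes, so this dependence is not particular to the 10. With each library left out in turn, the log2 fold changes of the 10 ranged from 0.24 (RELA) to 3.62 (TRAF1). With upper-quartile scaling 7 were called, since RELB was lost (adjusted p = 0.0515). In bulk RNA, a transcript change in every cell and a change in a fraction of the cells cannot be told apart.

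**Figure D1:**
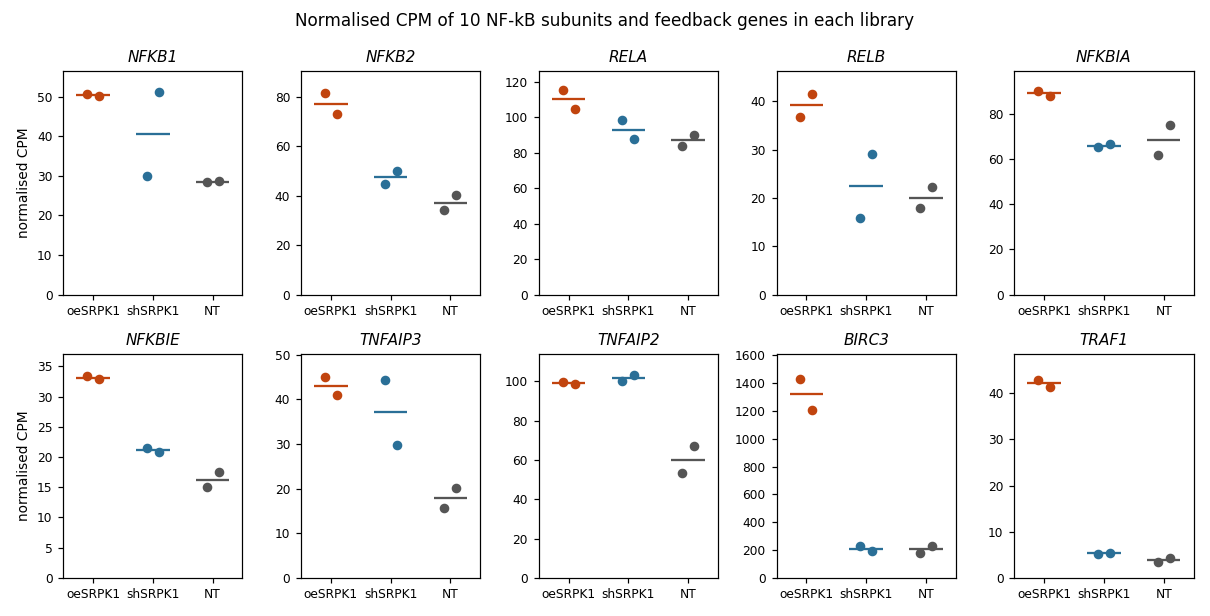
Normalised CPM of each of the 10 genes in every library (points) with the group mean (line), on linear axes that start at 0, for oeSRPK1, shSRPK1 and NT (n = 2 each). The oeSRPK1 points lie above both NT points in all 10 panels, while TNFAIP2 and TNFAIP3 are high in both transfected groups. TRAF1 and BIRC3 have the largest fold rises over NT in oeSRPK1.

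TRAF1 had the largest fold change of the 10. TRAF1 is an adaptor of TNF receptors that binds TRAF2 and the inhibitor-of-apoptosis ubiquitin ligases (ENSG00000056558.9, GRCh38 chromosome 9, 120902393 to 120929173, minus strand). It had 43.0 and 41.4 normalised CPM in oeSRPK1, from 955 and 160 reads, 5.14 and 5.45 in shSRPK1, from 68 and 57 reads, and 3.40 and 4.38 in NT, from 35 and 62 reads. The oeSRPK1 libraries stood far above the other 4, and shSRPK1 lay slightly above NT without overlap. In oeSRPK1 it reached 10.7 times the NT level (3.42 ± 0.18 on the log2 scale, 95% interval of the fold 8.07 to 14.3, edgeR adjusted p = 0.000282), and 0.638% of tested genes had a larger fold change. Against shSRPK1 the rise was 7.98-fold (95% interval 6.05 to 10.5, edgeR adjusted p = 0.000311). The difference between shSRPK1 and NT was 0.43 ± 0.19 (edgeR adjusted p = 0.189).

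BIRC3, an inhibitor-of-apoptosis ubiquitin ligase of the TNF receptor complex (ENSG00000023445.12, chromosome 11, 102317450 to 102339403, plus strand), had 1428 and 1210 normalised CPM in oeSRPK1, 226 and 190.2 in shSRPK1, and 178 and 229 in NT. The oeSRPK1 values were high in both libraries and the other 2 groups overlapped. It made up 0.14% and 0.12% of all gene reads in oeSRPK1, against 0.0185% and 0.0238% in NT. The rise over NT was 6.48-fold (2.70 ± 0.18 on the log2 scale, 95% interval of the fold 4.84 to 8.67, edgeR adjusted p = 0.000378), and that over shSRPK1 was 6.34-fold (95% interval 4.74 to 8.49, edgeR adjusted p = 0.000584). Between shSRPK1 and NT the fold was 1.02 (95% interval 0.775 to 1.35, edgeR adjusted p = 0.928), and the sign of the log2 fold change turned without NT 1 (-0.14) or shSRPK1 1 (-0.098). TRAF1 and BIRC3 were called in oeSRPK1 against both other groups under all 17 alternatives, with log2 fold changes over NT of 3.26 to 3.62 for TRAF1 and 2.52 to 2.88 for BIRC3.

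Among the subunits, NFKB2 had the firmest rise. NFKB2 encodes the precursor that is processed in the non-canonical pathway (ENSG00000077150.16, chromosome 10, 102394110 to 102402529, plus strand). It had 81.5 and 72.9 normalised CPM in oeSRPK1, 44.9 and 50.02 in shSRPK1, and 34.1 and 40.2 in NT, so the 3 groups did not overlap. It rose in oeSRPK1 against NT (1.06 ± 0.14, edgeR adjusted p = 0.00261) and against shSRPK1 (0.71 ± 0.13, edgeR adjusted p = 0.0109), while in shSRPK1 against NT it differed by 0.35 ± 0.13 (edgeR adjusted p = 0.133). The call over NT was lost without NT 1 (adjusted p = 0.0541) or oeSRPK1 1 (0.0658), and that over shSRPK1 without oeSRPK1 1 (0.154) or oeSRPK1 2 (0.0504). Without shSRPK1 1, NFKB2 was also called in shSRPK1 against NT (0.42, adjusted p = 0.0204).

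NFKB1 encodes the precursor of the DNA-binding partner in the canonical dimer (ENSG00000109320.10, chromosome 4, 102501329 to 102617302, plus strand). It had 50.8 and 50.2 normalised CPM in oeSRPK1, 29.9 and 51.3 in shSRPK1, and 28.4 and 28.7 in NT. The shSRPK1 libraries disagreed, one near NT and the other at the oeSRPK1 level, a 1.71-fold gap between replicates. NFKB1 rose in oeSRPK1 against NT (0.83 ± 0.23, edgeR adjusted p = 0.0423), and the call was lost without any one of the NT or oeSRPK1 libraries (adjusted p 0.142 to 0.251). It was not called in shSRPK1 against NT (0.50 ± 0.23, edgeR adjusted p = 0.194), but was without shSRPK1 1 (0.85, adjusted p = 3.87e-05) and without a filter on low counts (0.51, adjusted p = 0.0174). In oeSRPK1 against shSRPK1 it differed by 0.32 ± 0.23 (edgeR adjusted p = 0.338), which was -0.054 without shSRPK1 1 and 0.72 without shSRPK1 2 (adjusted p = 0.000192).

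RELB, the activating partner of processed NFKB2 (ENSG00000104856.12, chromosome 19, 45001430 to 45038198, plus strand), had 36.7 and 41.6 normalised CPM in oeSRPK1, 15.9 and 29.1 in shSRPK1, and 17.9 and 22.2 in NT. Both oeSRPK1 libraries lay above the others, and the shSRPK1 libraries, 1.82-fold apart, lay on either side of NT. It rose in oeSRPK1 against NT (0.95 ± 0.27, edgeR adjusted p = 0.0489) at the edge of the threshold, and the call was lost without any one of the NT or oeSRPK1 libraries (adjusted p 0.153 to 0.261). It was not called in oeSRPK1 against shSRPK1 (0.80 ± 0.27, edgeR adjusted p = 0.0755) except without shSRPK1 2 (1.23, adjusted p = 6.19e-06), without a filter on low counts, in DESeq2 and with a replicate block. Between shSRPK1 and NT the difference was 0.15 ± 0.27 (edgeR adjusted p = 0.751), which was 0.53 without shSRPK1 1 (adjusted p = 0.0143) and -0.34 without shSRPK1 2.

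RELA, the main activating subunit of the canonical pathway (ENSG00000173039.17, chromosome 11, 65653596 to 65663094, minus strand), was at 115 and 105 normalised CPM in oeSRPK1, 98.2 and 87.7 in shSRPK1, and 83.9 and 90.0 in NT. The oeSRPK1 libraries were highest, and shSRPK1 overlapped NT. RELA was not called in any comparison. It stood 0.34 ± 0.12 above NT in oeSRPK1 (edgeR adjusted p = 0.0749) and 0.096 ± 0.12 above NT in shSRPK1 (edgeR adjusted p = 0.627), and oeSRPK1 stood 0.25 ± 0.12 above shSRPK1 (edgeR adjusted p = 0.164). The difference between oeSRPK1 and NT passed without shSRPK1 1 (0.31, adjusted p = 0.00803), without shSRPK1 2 (0.31, adjusted p = 0.0101) and when only those 2 groups were fitted (0.32, adjusted p = 0.00765). That between oeSRPK1 and shSRPK1 passed without shSRPK1 1 (0.30, adjusted p = 0.0398).

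Of the inhibitors, NFKBIE rose in oeSRPK1 and NFKBIA stayed short of the threshold against NT. NFKBIE encodes a cytoplasmic inhibitor (ENSG00000146232.13, chromosome 6, 44258166 to 44265788, minus strand). It had 33.4 and 32.8 normalised CPM in oeSRPK1, 21.5 and 20.9 in shSRPK1, and 14.95 and 17.6 in NT, again 3 groups in order with no overlap. The rise was 1.02 ± 0.14 over NT (edgeR adjusted p = 0.00321) and 0.65 ± 0.14 over shSRPK1 (edgeR adjusted p = 0.0159), and the difference between shSRPK1 and NT was 0.38 ± 0.14 (edgeR adjusted p = 0.122). The call over NT was lost without NT 1 (adjusted p = 0.0630) or oeSRPK1 1 (0.0750), and that over shSRPK1 without oeSRPK1 1 (0.170) or oeSRPK1 2 (0.0784) and after thinning (0.0548).

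NFKBIA encodes the inhibitor that is resynthesised fastest after canonical activation (ENSG00000100906.9, chromosome 14, 35401511 to 35404749, minus strand). It had 90.5 and 88.2 normalised CPM in oeSRPK1, 65.3 and 66.9 in shSRPK1, and 62.1 and 75.4 in NT. The oeSRPK1 libraries were above the other 4, and both shSRPK1 values fell inside the NT range. Against NT the difference was 0.38 ± 0.13 (edgeR adjusted p = 0.0687), and it passed without shSRPK1 1 (0.34, adjusted p = 0.00903), without shSRPK1 2 (0.34, adjusted p = 0.0103) or when only those 2 groups were fitted (0.35, adjusted p = 0.0106). Against shSRPK1, NFKBIA rose (0.44 ± 0.13, edgeR adjusted p = 0.0422), a call lost without any one of the NT or oeSRPK1 libraries (adjusted p 0.0778 to 0.278), in DESeq2 (0.0688), when only both groups were fitted (0.0735), without a filter on low counts (0.0760), with a replicate block (0.0591) and after thinning (0.0557). Between shSRPK1 and NT it differed by -0.058 ± 0.12 (edgeR adjusted p = 0.798), and by 0.086 without NT 2.

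TNFAIP3 and TNFAIP2 were the 2 genes that rose in both transfected groups against NT. TNFAIP3 encodes the ubiquitin-editing enzyme A20, which ends signalling upstream of the inhibitor kinase (ENSG00000118503.13, chromosome 6, 137867188 to 137883312, plus strand). It had 44.9 and 40.8 normalised CPM in oeSRPK1, 44.3 and 29.8 in shSRPK1, and 15.5 and 20.2 in NT. Both transfected groups lay above NT and overlapped each other, with the shSRPK1 replicates 1.49-fold apart. TNFAIP3 rose in oeSRPK1 (1.27 ± 0.22, edgeR adjusted p = 0.00744) and in shSRPK1 (1.05 ± 0.21, edgeR adjusted p = 0.0261). The first call was lost without NT 1 (adjusted p = 0.0927) or oeSRPK1 1 (0.122), and the second without any one of the NT or oeSRPK1 libraries (0.0816 to 0.282). Between oeSRPK1 and shSRPK1 the difference was 0.21 ± 0.21 (95% interval -0.27 to 0.69, edgeR adjusted p = 0.482), which was 0.51 without shSRPK1 1 (adjusted p = 0.0145) and -0.072 without shSRPK1 2. TNFAIP3 shares 95 exon bases with WAKMAR2 on the opposite strand, which had 3 to 20 reads per library, and without a stated strand setting reads there cannot be assigned to one of them.

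TNFAIP2, a TNF-induced protein of membrane protrusions (ENSG00000185215.7, chromosome 14, 103123442 to 103137439, plus strand), had 99.9 and 98.5 normalised CPM in oeSRPK1, 99.99 and 103 in shSRPK1, and 53.2 and 66.9 in NT. The transfected libraries lay within a narrow band, above NT, and both shSRPK1 values were marginally above both oeSRPK1 values. TNFAIP2 rose in oeSRPK1 (0.72 ± 0.13, edgeR adjusted p = 0.00948) and in shSRPK1 (0.76 ± 0.13, edgeR adjusted p = 0.0184) against NT. The first call was lost without NT 1 (adjusted p = 0.118), oeSRPK1 1 (0.130) or oeSRPK1 2 (0.0638), and the second without any one of the NT or oeSRPK1 libraries (0.0703 to 0.246). Between oeSRPK1 and shSRPK1 it differed by -0.032 ± 0.13 (95% interval -0.33 to 0.27, edgeR adjusted p = 0.883).

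In shSRPK1 against NT, 2 of the 10 genes were called higher, TNFAIP3 and TNFAIP2, and 0 lower, where 5.43% of all tested genes were called higher and 3.75% lower. The median log2 fold change of the 10 was 0.36, against 0.01 for all tested genes. In 6 of the 10 both shSRPK1 libraries lay above both NT libraries, as in 28.8% of tested genes, and in the other 4 (RELA, RELB, NFKBIA and BIRC3) the groups overlapped. The number called depended on which single library was left out, and so did the number over all tested genes. This dependence is therefore not particular to the 10. With each library left out in turn, the log2 fold changes ranged from 0.7288 to 1.301 for TNFAIP3 and from 0.5992 to 0.9279 for TNFAIP2. A fit of these 2 groups alone called 0 of the 10, where 89 of 14279 tested genes were called higher and 40 lower. The comparisons of both transfected groups with NT use the same NT libraries, so they are given side by side and not as separate evidence.

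In oeSRPK1 against shSRPK1, a comparison of cells that both went through transfection with different plasmids, 5 of the 10 were called higher (TRAF1, BIRC3, NFKB2, NFKBIE and NFKBIA) and 0 lower, where 11.5% of tested genes were called higher and 11.3% lower. The median was 0.54, against -0.00197 for all tested genes. The groups did not overlap in 8 of the 10, with 7 higher in oeSRPK1 and TNFAIP2 lower, while 31.8% and 30.5% of tested genes had those arrangements. The number called changed when single libraries were left out, as did the number over all tested genes. With each library left out in turn, the log2 fold changes ranged from 2.92 to 3.03 for TRAF1 and from 2.505 to 2.78 for BIRC3. The oeSRPK1 and shSRPK1 cells also differed in plasmid backbone, in insert and in the sum of muscle transcripts. SRPK1 cannot be told apart from these in this comparison.

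**Figure D2:**
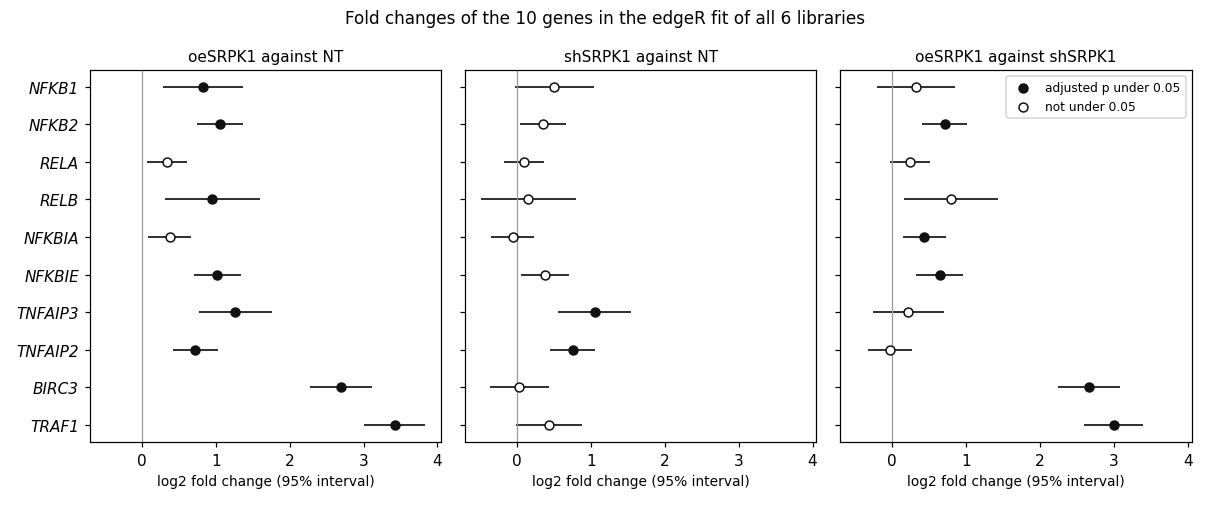
Log2 fold change of each gene with its 95% interval from the edgeR fit of all 6 libraries, in the 3 comparisons. Filled points have an adjusted p under 0.05. TRAF1 and BIRC3 lie at 3.42 and 2.70 in oeSRPK1 against NT, far from the other 8 genes, whereas in shSRPK1 against NT the filled points are TNFAIP3 and TNFAIP2.

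Set on a scale of normalised CPM per kb of exon, which allows levels of different genes to be compared, BIRC3 moved to the top in oeSRPK1. There it averaged 175 ± 20.5 CPM per kb (SD, n = 2), followed by NFKBIA at 37.6 ± 0.705, and the libraries of these neighbours did not overlap. RELA (20.1) and TNFAIP2 (19.7) overlapped each other, as did RELB (12.9) with NFKBIE (12.8) and TNFAIP3 (8.49) with NFKB1 (8.07), with NFKB2 (17.2) between the first 2 pairs. TRAF1, at 6.54 CPM per kb, was last of the 10 in oeSRPK1 despite its fold change. In shSRPK1, NFKBIA (27.9) and BIRC3 (27.7) led and overlapped, and TNFAIP2 (20.2) stood above RELA (17.0). Below NFKB2 (10.6), each of NFKBIE, RELB, TNFAIP3 and NFKB1, from 8.21 down to 6.49, overlapped its neighbour, and TRAF1 was at 0.821. In NT, NFKBIA averaged 28.98 and BIRC3 27.1, with overlapping libraries, and RELA (15.9), TNFAIP2 (11.9) and NFKB2 (8.28) followed without overlap. RELB (6.60) and NFKBIE (6.30) overlapped, then came NFKB1 (4.56), TNFAIP3 (3.54) and TRAF1 (0.603).

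Ratios of partner genes within a library, formed per kb of exon, do not depend on library scaling and were described without a test. BIRC3 over its neighbour and close relative BIRC2 was 1.26 and 1.20 in oeSRPK1, 0.422 and 0.324 in shSRPK1, and 0.354 and 0.428 in NT. BIRC3 thus outnumbered BIRC2 in oeSRPK1, and BIRC2 outnumbered BIRC3 elsewhere, although BIRC2 itself rose in oeSRPK1 against NT. TRAF1 over TRAF2 was 0.576 and 0.544 in oeSRPK1, 0.0762 and 0.0690 in shSRPK1, and 0.0608 and 0.0743 in NT. NFKBIE over NFKBIA was 0.339 and 0.342 in oeSRPK1, 0.303 and 0.286 in shSRPK1, and 0.221 and 0.214 in NT, 3 levels without overlap. TNFAIP3 over NFKBIA was 0.233 and 0.218 in oeSRPK1, 0.319 and 0.209 in shSRPK1, and 0.117 and 0.126 in NT. Among the negative regulators, TNFAIP3 and NFKBIE were therefore more abundant relative to NFKBIA in both transfected groups than in NT. RELB over RELA was 0.574 and 0.716 in oeSRPK1, 0.292 and 0.597 in shSRPK1, and 0.383 and 0.444 in NT, and NFKB2 over NFKB1 was 2.24 and 2.03 in oeSRPK1, 2.10 and 1.36 in shSRPK1, and 1.68 and 1.96 in NT. For both ratios oeSRPK1 lay above NT and overlapped shSRPK1. NFKBIA over RELA was 1.81 and 1.94 in oeSRPK1, 1.53 and 1.76 in shSRPK1, and 1.71 and 1.93 in NT, so the inhibitor and the subunit kept a like ratio in oeSRPK1 and NT.

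**Figure D3:**
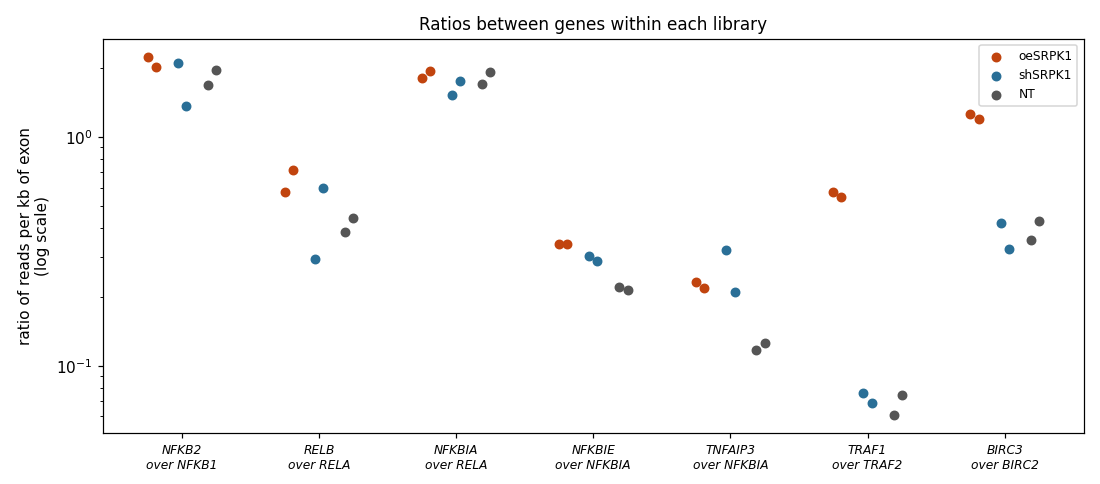
Ratios of reads per kb of exon between pairs of genes within each library, on a log axis, with 2 points per group for oeSRPK1, shSRPK1 and NT. The TRAF1 over TRAF2 and BIRC3 over BIRC2 points of oeSRPK1 lie apart from the other 4 libraries, while the NFKBIA over RELA points of oeSRPK1 (1.81 and 1.94) and NT (1.71 and 1.93) overlap.

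Replicates agreed to different degrees. In oeSRPK1 the median absolute log2 difference between replicates was 0.0961 over the 10 genes, against 0.162 over all tested genes, although oeSRPK1 2 was the shallowest library and had the highest sum of muscle transcripts. In shSRPK1 it was 0.158 for the 10 genes, against 0.272 for all genes, with NFKB1, RELB and TNFAIP3 the farthest apart. In NT it was 0.294 for the 10 genes, against 0.132 for all genes, and all 10 were higher in NT 2 than in NT 1, while 50.5% of all tested genes were. The NT level of these genes thus rested on a pair of libraries that differed in one direction for the whole set, by a factor of 1.01 (NFKB1) to 1.3 (TNFAIP3). In oeSRPK1, only 1 of the 10 was higher in oeSRPK1 2 than in oeSRPK1 1, against 49.9% of all tested genes. In shSRPK1, 6 of the 10 were higher in shSRPK1 2, against 50.7%. Without NT 1, the log2 fold changes in oeSRPK1 against NT of NFKB1, NFKB2, RELB, NFKBIE, TNFAIP3 and TNFAIP2 were lower. TNFAIP3 went from 1.265 to 1.085 and NFKB1 from 0.825 to 0.810. Calls became fewer without NT 1 over all tested genes as well. Whether the loss among these genes went beyond that was not tested.

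The wider pathway was followed in 100 further genes in 5 lists, of which 90 were tested. The lists were chosen with earlier results of these data known, so counts of called genes are descriptive and no independent test of the pathway. In oeSRPK1 against NT 39 rose and 4 fell (of all tested genes, 11.2% and 9.45%), in shSRPK1 against NT 13 and 1 (5.43% and 3.75%), and in oeSRPK1 against shSRPK1 29 and 5 (11.5% and 11.3%). These counts moved when single libraries were left out, in each comparison. The counts over all tested genes moved as well, so the dependence on single libraries is not particular to the lists.

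Of 10 other NF-kB, IkB and inhibitor kinase genes tested, 2 rose in oeSRPK1 against NT, both atypical nuclear IkB proteins, with a list median of 0.30, a share not far from the 11.2% of all tested genes called higher. NFKBIZ, a nuclear coactivator, rose by 1.10 ± 0.21 (edgeR adjusted p = 0.0114), and BCL3, which binds NFKB1 and NFKB2 dimers, by 0.68 ± 0.18 (adjusted p = 0.0309). BCL3 also rose in shSRPK1 against NT (0.89 ± 0.17, edgeR adjusted p = 0.0240), and NFKBIZ in oeSRPK1 against shSRPK1 (0.81 ± 0.21, edgeR adjusted p = 0.0303). The BCL3 call in shSRPK1 was lost without any one of the NT or oeSRPK1 libraries (adjusted p 0.0771 to 0.278), and the NFKBIZ call over shSRPK1 without NT 2 (0.0505), oeSRPK1 1 (0.283) or oeSRPK1 2 (0.0722) and when only both groups were fitted (0.0518). Both calls over NT in oeSRPK1 were lost without NT 1 (adjusted p = 0.112 for NFKBIZ and 0.243 for BCL3) or without oeSRPK1 1 (0.158 and 0.285), and that of BCL3 also without NT 2 (0.0975) or oeSRPK1 2 (0.0947) and after thinning (0.0505).

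Of 30 receptors and adaptors tested, 12 rose and 3 fell in oeSRPK1 against NT, with a median of 0.39, where 11.2% of all tested genes were called higher and 9.45% lower, so the 3 that fell are about the share of all genes. The shares of all tested genes were 5.43% and 3.75% in shSRPK1 against NT, and 11.5% and 11.3% in oeSRPK1 against shSRPK1. The Toll and interleukin receptor adaptor MYD88 had 104 and 93.6 normalised CPM in oeSRPK1, 55.0 and 72.7 in shSRPK1, and 32.3 and 33.5 in NT (oeSRPK1 against NT 1.59 ± 0.15, edgeR adjusted p = 0.000975). BIRC2 (1.05 ± 0.13, edgeR adjusted p = 0.00239) and the TWEAK receptor TNFRSF12A (1.298 ± 0.19, edgeR adjusted p = 0.00435) also rose. Those that fell were the TNF receptor TNFRSF1A, with 88.6 and 103 CPM in oeSRPK1 against 167 and 173 in NT (-0.83 ± 0.13, edgeR adjusted p = 0.00526), the lymphotoxin receptor LTBR (-0.68 ± 0.10, adjusted p = 0.00503) and the non-canonical kinase MAP3K14 (-0.61 ± 0.12, adjusted p = 0.0144). These 3 genes were also lower in oeSRPK1 than in shSRPK1, at -0.89 ± 0.13, -0.67 ± 0.10 and -0.66 ± 0.12 (edgeR adjusted p = 0.00447, 0.00573 and 0.0109), where 9 genes of the list rose. Against NT, 4 rose in shSRPK1, MYD88 (0.95 ± 0.15, edgeR adjusted p = 0.0139), the kinase IKBKE (0.80 ± 0.14, adjusted p = 0.0191), the TNF receptor adaptor TRADD (0.71 ± 0.16, adjusted p = 0.0363) and the interleukin receptor chain IL1RAP (0.84 ± 0.21, adjusted p = 0.0470). Without oeSRPK1 1, the calls of BIRC2, TNFRSF12A, TNFRSF1A, LTBR and MAP3K14 over NT were lost (adjusted p 0.0601 to 0.161), as they were without NT 1 (0.0586 to 0.103), and those of TNFRSF1A, LTBR and MAP3K14 also without NT 2 (0.0626 to 0.128). Their calls over shSRPK1 were lost without oeSRPK1 1 (0.0908 to 0.139), and that of LTBR also without oeSRPK1 2 (0.0514), as was that of MAP3K14 over NT (0.0565). Without any one of the NT or oeSRPK1 libraries, the 4 calls in shSRPK1 against NT were lost (0.0551 to 0.343).

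Of 13 other genes on the list of negative regulators, 5 rose in oeSRPK1 against NT and 0 fell, with a median of 0.26. Among all tested genes, the shares called higher and lower were 11.2% and 9.45% there, and 5.43% and 3.75% in shSRPK1 against NT. TNIP1, which works with TNFAIP3, had 347 and 314 normalised CPM in oeSRPK1, 210.0 and 171 in shSRPK1, and 121 and 147 in NT (oeSRPK1 against NT 1.31 ± 0.15, edgeR adjusted p = 0.00197). N4BP1 rose by 0.93 ± 0.18 (edgeR adjusted p = 0.0124), TNIP2 by 0.56 ± 0.12 (adjusted p = 0.0162) and IRAK2 by 0.95 ± 0.15 (adjusted p = 0.00595). IRAK2 is better known as a kinase-like adaptor that carries the signal of interleukin and Toll-like receptors than as a negative regulator. N4BP1 also rose in shSRPK1 against NT (0.79 ± 0.18, edgeR adjusted p = 0.0365), and in oeSRPK1 against shSRPK1 IRAK2, TNIP1 and TNIP2 rose (0.82, 0.80 and 0.58). Without oeSRPK1 1 all 4 named calls over NT were lost (adjusted p 0.0505 to 0.158), those of IRAK2, N4BP1 and TNIP2 also without NT 1 (0.0859 to 0.153), and those of N4BP1 and TNIP2 also without NT 2 (0.121 and 0.132) or oeSRPK1 2 (0.0596 and 0.0900), while that of IRAK2 was also lost after thinning (0.0537). The 3 calls over shSRPK1 were lost without oeSRPK1 1 (0.137 to 0.154), those of TNIP1 and TNIP2 also without oeSRPK1 2 (0.0582 and 0.0794), and the N4BP1 call in shSRPK1 without any one of the NT or oeSRPK1 libraries (0.100 to 0.275).

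Of 23 other targets tested, 9 rose and 1 fell in oeSRPK1 against NT, with a median of 0.62. Of all tested genes, 11.2% were called higher and 9.45% lower there, and 5.43% and 3.75% in shSRPK1 against NT. The adhesion molecule ICAM1 had 73.8 and 71.6 normalised CPM in oeSRPK1, 42.1 and 28.5 in shSRPK1, and 19.9 and 18.8 in NT (1.91 ± 0.19 over NT, edgeR adjusted p = 0.000976). KLF6, a zinc finger factor, and PTGS2, the inducible prostaglandin synthase, rose by 1.09 ± 0.12 and 1.40 ± 0.15 (edgeR adjusted p = 0.00146 and 0.00149). CEBPD, a leucine zipper factor, fell, with 14.1 and 16.0 CPM in oeSRPK1 against 32.2 and 36.6 in NT (-1.22 ± 0.14, edgeR adjusted p = 0.00195), a call lost without oeSRPK1 1 (0.0578). Against NT, in shSRPK1 PTGS2, ICAM1, the complement component C3 and KLF6 rose (0.97, 0.87, 0.73 and 0.51, edgeR adjusted p = 0.0126, 0.0285, 0.0365 and 0.0371), and PLAU, the urokinase activator of plasminogen, fell (-1.04 ± 0.25, edgeR adjusted p = 0.0448), whereas PLAU stood 2.77 ± 0.27 above its shSRPK1 level in oeSRPK1 (edgeR adjusted p = 0.00176). The 5 calls in shSRPK1 against NT were lost without any one of the NT or oeSRPK1 libraries. In oeSRPK1 against shSRPK1, 6 targets rose and 2 fell (of all tested genes, 11.5% and 11.3%). Those that fell were CEBPD (-1.415 ± 0.14, edgeR adjusted p = 0.00176) and C3 (-0.74 ± 0.17, edgeR adjusted p = 0.0196). The CEBPD call was lost without oeSRPK1 1. That of C3 was lost without any one of the NT or oeSRPK1 libraries and when only both groups were fitted (0.06).

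Of 14 cytokine genes tested, 11 rose in oeSRPK1 against NT and 0 fell, with a median of 2.5. The shares of all tested genes called higher and lower were 11.2% and 9.45% there, and 5.43% and 3.75% in shSRPK1 against NT. IL6 had 205 and 190 normalised CPM in oeSRPK1, 37.7 and 48.1 in shSRPK1, and 29.8 and 38.3 in NT (2.53 ± 0.17 over NT, edgeR adjusted p = 0.000378). Against NT, 3 rose in shSRPK1, CCL5 (3.71 ± 0.39, edgeR adjusted p = 0.00396, from 36 and 30 reads in shSRPK1 against 2 and 3 in NT), CXCL8 (1.83 ± 0.24, adjusted p = 0.00983) and CSF2 (1.79 ± 0.40, adjusted p = 0.0350). Without NT 1 these 3 calls were lost (adjusted p = 0.0857, 0.117 and 0.292), those of CCL5 and CSF2 also without NT 2 (0.0649 and 0.187), and that of CSF2 also without shSRPK1 1, oeSRPK1 1 or oeSRPK1 2 (0.0615 to 0.102).

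**Figure D4:**
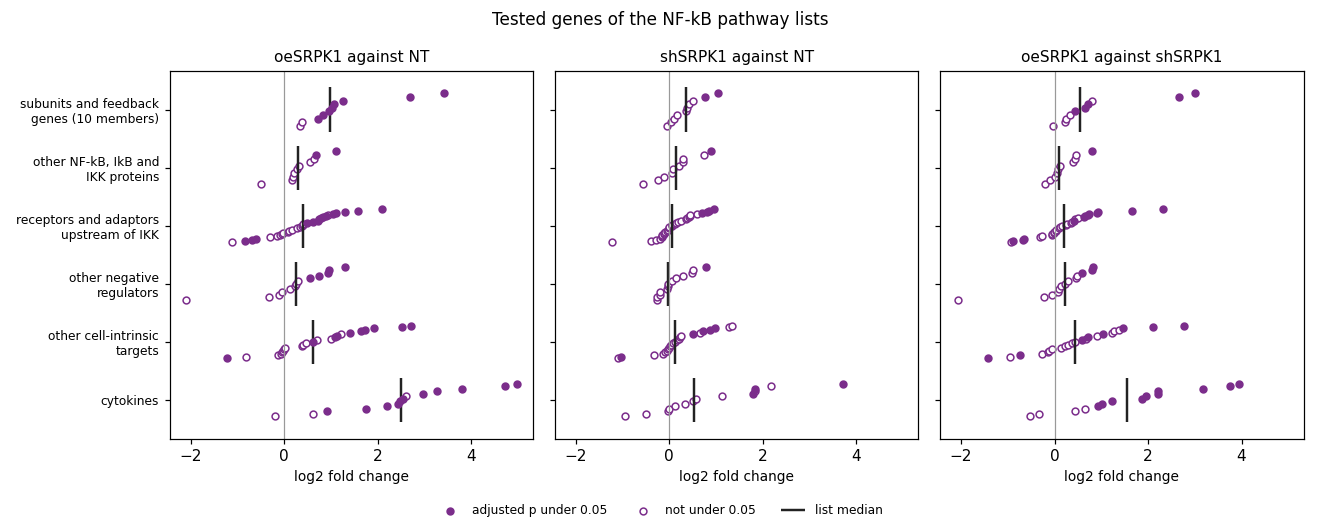
Log2 fold changes of the tested genes of each list (points, filled where the adjusted p is under 0.05) with the list median (bar) in the 3 comparisons. The 10 subunits and feedback genes have a median of 0.99 in oeSRPK1 against NT, between the 0.62 of the other targets and the 2.5 of the cytokines.

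Genes with similar profiles were sought among 11275 other protein-coding genes by the root-mean-square difference of centred log2 CPM over the 6 libraries. Nearest to the mean profile of the 10 genes were TPRA1 (0.0812), DUSP10 (0.0845), SLC22A4 (0.100), USP53 (0.103) and BBS12 (0.103). The nearest to single genes included MCL1 for NFKB2 (0.0311), KIAA2026 for NFKBIA (0.0303), EPB41L2 for RELA (0.0377), ABLIM3 for NFKB1 (0.0551) and CLDN12 for NFKBIE (0.0597). MUC1 was nearest to TNFAIP3 (0.0750), FBXL2 to TNFAIP2 (0.0566) and CTSS to BIRC3 (0.0477). TRAF1 had no gene as close, its nearest being DHRS2 at 0.208.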

How the data were processed

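Poly(A) RNA of 6 T98G libraries was sequenced as paired reads, and the authors deposited 1 table of whole-number read counts per gene and library, not normalised. The submitters' processing notes name FastQC, Trimmomatic, STAR 2.5.3 and the build hg38. Which tool counted, on which annotation and with which strand setting is not given in the sources used here. The 5 closing entries that name no gene entered neither library sizes nor tests. They included reads in no gene (8.13% to 11.1%), reads aligned to several places (11.95% to 13.1%) and ambiguous reads (3.04% to 3.37%).

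Symbols were found for 56753 of 60483 ids, and positions and exon lengths are those of GENCODE 29 (GRCh38). In R 4.3.3, edgeR 4.0.16 kept 14732 genes by filterByExpr (minimum count 10, minimum total 15), scaled by TMM, and fitted glmQLFit and glmQLFTest to all 6 libraries, with a biological coefficient of variation of 14.5%. A Benjamini-Hochberg adjusted p under 0.05 over all tested genes made a call. A floor of 3 counts stood for 0.135 to 0.776 normalised CPM, covers counting error only, and lay below every gene of the 10 in every library. The 10 genes and the pathway and marker lists were chosen with earlier results of these data known. Genes named from a list were up to 4 called genes with the smallest adjusted p per comparison and those called against the list's majority. Genes with similar profiles had a mean log2 CPM of at least 1. The edgeR steps were tested on simulated counts in which all genes had the same coefficient of variation. Genes or replicates of unequal spread were thus not covered.

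Other settings were scaling by DESeq2's size factors or the upper quartile, a filter of CPM 5 in 2 libraries or none, a threshold of 0.01, DESeq2 1.42.0 and limma-voom (limma 3.58.1) as tests, fitting the compared groups alone, a replicate block, and omitting each library (the library left alone in its group is then taken to vary as the other groups do). Thinning to the shallowest library (3891549 reads) and removing muscle transcripts were chosen after seeing the data.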

Additional observations from a re-analysis of the deposited data

How the results depend on the processing

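The groups share replicate numbers, but same-numbered libraries did not deviate together (correlations 0.0104, -0.0186 and 0.0235 over 14732 genes). This shows no shared shift, but it cannot tell whether same-numbered libraries were prepared together. With a replicate block, 8, 2 and 5 of the 10 genes were called in oeSRPK1 against NT, shSRPK1 against NT and oeSRPK1 against shSRPK1, as without it, although in the last RELB replaced NFKBIA, and 43, 9 and 34 genes of the pathway lists were called, where 43, 14 and 34 were called without it. In shSRPK1 against NT, fitting only those groups or asking for an adjusted p under 0.01 left 0 of the 10 genes and 2 of the pathway genes in each case. No filter gave 25 pathway genes, where 1541 of 28529 tested genes were called higher and 1075 lower. In oeSRPK1 against NT, 66 pathway genes were called when only those groups were fitted and 25 at an adjusted p under 0.01. In the fit of only those groups, 3090 of 14322 tested genes were called higher and 3241 lower. In oeSRPK1 against shSRPK1, thinning left 3 of the 10 genes, where 1134 of 12551 tested genes were called higher and 1138 lower. In that comparison an adjusted p under 0.01 left 2 of the 10 and 19 pathway genes. The number of all tested genes under 0.01 is not given here, so the counts at that threshold have no baseline. With each library left out in turn, 2 to 10 of the 10 genes were called in oeSRPK1 against NT, 0 to 5 in shSRPK1 against NT and 2 to 7 in oeSRPK1 against shSRPK1, with 12 to 70, 0 to 36 and 5 to 63 pathway genes. Over all tested genes, the number called also moved in these fits, in each comparison. It rose without either shSRPK1 library and fell without either NT or either oeSRPK1 library. The highest counts among the 10 and the pathway genes thus arose where more of all tested genes were called. These ranges are therefore not particular to the 10 or to the lists. Signs turned only for differences that had not been called. With libraries left out, NFKB1 ranged from -0.054 to 0.72 and TNFAIP3 from -0.072 to 0.51 in oeSRPK1 against shSRPK1, and in shSRPK1 against NT RELB ranged from -0.34 to 0.53, NFKBIA from -0.19 to 0.086 and BIRC3 from -0.14 to 0.22, with BIRC3 at -0.030 after thinning. The causes were not tested. Removing the muscle transcripts left the 8, 2 and 5 calls among the 10 genes and the 43, 14 and 34 among the pathway genes as they were. That removal takes out only those genes and does not bear on the part of that RNA in the results. The shallowest library, oeSRPK1 2, limits the precision of all oeSRPK1 values, with 158 TNFAIP3 and 160 TRAF1 reads.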
